A study of Mus musculus with 18 samples.

Results

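The mouse mitochondrial genome encodes 37 transcripts, and all 37 are listed among the 41388 features counted in each of 18 libraries of mouse skeletal muscle. They were chosen as every feature on the chromosome named MT: 13 mRNAs, 2 rRNAs and 22 tRNAs. This rule used no measured value, though it was chosen with earlier results of these data known. Their deposited coordinates matched the GENCODE mouse release 21 annotation of GRCm38 for all 37 genes, and each is a single exon with no intron.

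The libraries came from the gastrocnemius, a mainly fast-fibre calf muscle, and the soleus, a neighbouring muscle rich in slow fibres, of mice aged 12 weeks that were fed chow and fasted for 4 h. Control mice were Site-1 Protease floxed (gene Mbtps1), and knockout mice were Site-1 Protease floxed HSACre+, so that both groups carried the floxed allele and only the knockout carried Cre. HSACre is driven by a skeletal actin promoter active in muscle fibres, and no library is described as carrying Cre alone. The titles give 5 control and 4 knockout libraries in each muscle, whereas the series text gives 4 per group; no label says that the libraries are separate mice, so p-values measure the spread between these samples. Total RNA was depleted of ribosomal RNA with KAPA RiboErase.

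Library totals ran from 38992432 to 78219534 counts. As a check of the tissue, the slow myosin Myh7 was at 107 to 530.2 CPM in the gastrocnemius and 5797 to 11485 in the soleus, and the fast myosin Myh4 was at 75413 to 91621 and 127 to 5619 CPM. CPM, the unit of level used throughout, is the count rescaled to library sizes set by the TMM method, which sets samples level over the bulk of genes. Mbtps1 counts did not fall with the knockout label, at 29.6 to 34.9 CPM in gastrocnemius controls against 34.7 to 42.8 in knockouts, and 30.5 to 34.4 against 31.0 to 36.3 in soleus. A gene count does not separate the deleted part of the gene from the rest, so it does not check the labels, and every direction below rests on them.

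Mitochondrial DNA is transcribed from both strands as long precursors that run through many genes. Most mRNAs and both rRNAs are flanked by tRNAs, whose excision by RNase P and RNase Z releases them. Most of the mRNAs then receive short poly(A) tails. The mRNAs encode core subunits of respiratory complexes I, III and IV and of ATP synthase, which work together with nuclear-encoded partners, while the rRNAs and tRNAs serve the organelle's own translation. Slow oxidative fibres are known for a high mitochondrial content.

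Several of the genes carry sequence features that bear on how they can be counted, and these are shown first. The tRNAs with the most counts were those for proline (mt-Tp), asparagine (mt-Tn) and cysteine (mt-Tc), all transcribed from the light strand. mt-Tq, the glutamine tRNA, is printed because of 1 library described further on; it was picked after its values were seen. Capitals mark the anticodon in the gene sequences, which are the GENCODE transcripts written 5′ to 3′.
mt-Tp: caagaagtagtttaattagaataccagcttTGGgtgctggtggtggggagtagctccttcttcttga
mt-Tn: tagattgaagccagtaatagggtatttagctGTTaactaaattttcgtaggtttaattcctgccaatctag
mt-Tc: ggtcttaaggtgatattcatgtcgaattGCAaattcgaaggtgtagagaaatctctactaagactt
mt-Tq: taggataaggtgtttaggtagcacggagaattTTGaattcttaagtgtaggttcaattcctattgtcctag
mt-Tp lies at MT 15356 to 15422 beside the noncoding control region. mt-Tn (5089 to 5159) and mt-Tc (5192 to 5257) face each other across a gap of 32 bases, and mt-Tq lies at 3772 to 3842.

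The 2 ATP synthase genes mt-Atp8 and mt-Atp6 are read in different frames from the same stretch of the genome and share 43 bases. The last 70 bases of mt-Atp8 (MT 7900 to 7969, transcribed from the heavy strand) are printed with the shared bases in capitals, because a read inside them cannot be given to 1 gene.
mt-Atp8 end: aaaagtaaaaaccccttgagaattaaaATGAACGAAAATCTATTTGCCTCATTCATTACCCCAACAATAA
mt-Nd4l and mt-Nd4 likewise share 7 bases on the same strand, and mt-Nd5 and mt-Nd6 share 14 on opposite strands.

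The nuclear genome also holds copies of mitochondrial sequence. Alignment of the 37 transcripts to all annotated nuclear transcripts found 15 copy genes at 200 or more aligned bases and 90% or more identity. Of these, 7 lie side by side on chromosome 1 between 24611535 and 24616197 (GRCm38) and repeat the stretch from mt-Co1 to mt-Nd4. A window of 90 bases of mt-Co1 (MT 6390 to 6479, positions 1063 to 1152 of the gene) shows how near the copies are. Capitals in the mt-Co1 line mark bases that differ in either copy, and capitals in the other lines mark bases that differ from mt-Co1.
mt-Co1: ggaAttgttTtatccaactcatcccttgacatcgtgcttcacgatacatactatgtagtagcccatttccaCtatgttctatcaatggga
Gm13340: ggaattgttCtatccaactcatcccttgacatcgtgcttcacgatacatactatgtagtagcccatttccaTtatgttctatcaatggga
Gm29216: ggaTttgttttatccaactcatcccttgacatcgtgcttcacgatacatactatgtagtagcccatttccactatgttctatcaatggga
The chromosome 1 copy Gm29216 has the single difference A1066T over the 483 bases aligned, and the chromosome 2 copy Gm13340 has T1072C and C1134T in this window and 37 differences over the gene, with positions counted from 1 at the 5′ end of mt-Co1. By contrast, mt-Co2 and its copy Gm28661 are identical over 681 bases, of which 60 (MT 7343 to 7402) are printed.
mt-Co2 and Gm28661: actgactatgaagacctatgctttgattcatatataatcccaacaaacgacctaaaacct
No read lying within such a stretch can be assigned to 1 of the 2 genes by its sequence.

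The 13 mRNAs took most of the mitochondrial counts. They held 7.29 to 8.73% of all counts in the gastrocnemius libraries and 9.33 to 12.6% in the soleus libraries, and these shares of the library totals did not overlap. On the TMM scale the summed mRNAs did overlap, at 75273 to 97820 CPM in gastrocnemius and 85117 to 119087 in soleus, with means of 87287 ± 7076 (SD, n = 5) and 89807 ± 3537 (SD, n = 5) in controls. In these whole-muscle samples, fewer cells of a type and less RNA per cell cannot be told apart, and neither can fibre type and the muscle of origin. The 2 rRNAs held 0.0553 to 0.211% and the 22 tRNAs 0.00184 to 0.0089%. Summed over the 18 libraries, the mRNAs had 85608271 counts, the rRNAs 1158094 and the tRNAs 49023. The rRNAs are a target of ribosomal depletion and the tRNAs are far shorter than a usual library fragment, so that neither share measures its abundance in the cell.

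Per kilobase of listed length, the mRNAs fell into an upper and a lower group with a gap between them. The upper 7 were mt-Co1, the catalytic subunit of complex IV, at a mean of 17596 CPM per kilobase over the 18 libraries, mt-Cytb, the complex III subunit, at 14381, and 5 subunits of complex I: mt-Nd1 at 14110, mt-Nd2 at 9026, mt-Nd5 at 7679, mt-Nd4 at 4528 and mt-Nd6 at 4054. The lower 6 were mt-Nd4l (complex I) at 526, mt-Atp6 at 420.3, the complex IV subunits mt-Co2 at 332 and mt-Co3 at 308, mt-Atp8 at 207 and mt-Nd3 (complex I) at 109 CPM per kilobase. The lower 6 follow one another along the genome, from MT 7013 to 10173, and are the only mRNAs there. All 18 libraries had mt-Nd6 above mt-Nd4l, the neighbours on either side of the gap.

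Most of the order within each group held from library to library. Only 4 pairs of neighbours in the order changed places in any library. mt-Cytb exceeded mt-Nd1 per kilobase in 11 libraries, of which 9 were soleus and 2 gastrocnemius, so these 2 levels do not have a common order over both muscles. mt-Nd2 exceeded mt-Nd5, mt-Nd4 exceeded mt-Nd6, and mt-Co2 exceeded mt-Co3 in 17 of 18 libraries each. mt-Nd6 is the only mRNA transcribed from the light strand; the strand setting of the counting is not given, and without it reads from mt-Nd6 and from heavy-strand RNA across the same bases cannot be told apart.

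**Figure D1:**
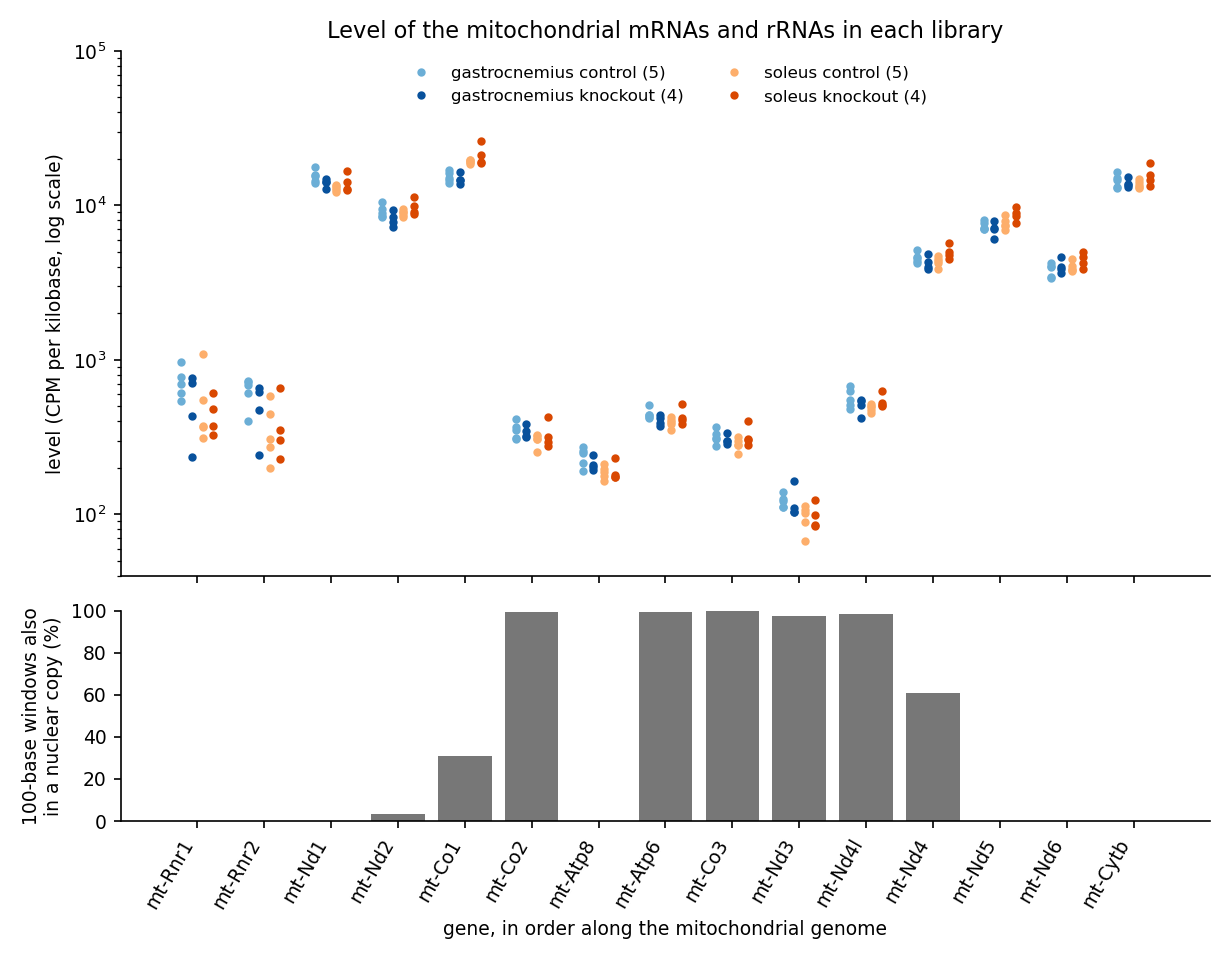
Upper panel: level of each mitochondrial mRNA and rRNA in CPM per kilobase (log axis), 1 point per library, coloured by group, in order along the genome. Lower panel: percentage of the gene's 100-base windows that occur unchanged in an annotated nuclear copy; 5 of the 6 mRNAs with low levels are at 97.6% or more, while mt-Atp8 is at 0.

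Sequence shared with the nuclear copies coincided with the lower group. Of the 100-base windows of mt-Co2, mt-Atp6, mt-Co3, mt-Nd3 and mt-Nd4l, 97.6 to 99.8% occur unchanged in an annotated nuclear copy. The share was 60.8% for mt-Nd4, 30.8% for mt-Co1, 3.19% for mt-Nd2 and 0 for mt-Nd1, mt-Nd5, mt-Nd6 and mt-Cytb. mt-Atp8 is the exception, with no annotated copy, although the chromosome 1 copies of its neighbours, Gm10925 (of mt-Atp6) and Gm28661 (of mt-Co2), leave a gap of 233 bases with no annotated gene where an mt-Atp8 copy would fall; the sequence of that gap was not analysed here. How reads that match 2 places were counted is not given, and the part this played in the lower levels was not tested.

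The copies themselves took counts in every library. Summed over 18 libraries, Gm10925 had 495757 counts against 269778 for mt-Atp6, Gm28438 had 69690 against 35615 for mt-Nd3, Gm28437 had 239707 against 228378 for mt-Co3, and Gm28661 had 215075 against 213917 for mt-Co2. Thus the copy held 64.8% of the mt-Atp6 pair, 66.2% of the mt-Nd3 pair, 51.2% of the mt-Co3 pair and 50.1% of the mt-Co2 pair. For mt-Nd4l the gene had more counts than its copy: Gm10222 had 112673 against 146157, or 43.5% of the pair. The shares were far smaller for the partial copies of mRNAs of the upper group: 1.25% for Gm29216, which differs from mt-Co1 at 1 of 483 aligned bases, and 4.08% for Gm28439, which is identical to 876 bases of mt-Nd4. Gm13340 held 1.74% of its pair with mt-Co1. In single libraries, all copies of a gene together held 62.8 to 66.9% of the counts of mt-Atp6 and its copies. The shares were 58.4 to 61.9% for mt-Co2, 49.4 to 52.9% for mt-Co3, 58.4 to 73.1% for mt-Nd3 and 41.3 to 45.8% for mt-Nd4l. With the counts of all copies added to their gene, the mean levels of the lower 6 ranged from 207 CPM per kilobase (mt-Atp8) to 1195 (mt-Atp6), still below the 4065 of mt-Nd6. The levels of these 6 genes are therefore uncertain, and the comparisons below set each gene only against itself in other libraries.

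Among the tRNAs, mt-Tp had 45220 of the 49023 counts, which is 92.2%. The next highest per kilobase were mt-Tn with 1259 counts over the 18 libraries and mt-Tc with 1066. The lowest 3 per kilobase were mt-Td, the aspartate tRNA, with 6 counts, mt-Tk, the lysine tRNA, with 8 and mt-Tg, the glycine tRNA, with 11. The 8 light-strand tRNAs had 48482 counts, or 3262 without mt-Tp, whereas the 14 heavy-strand tRNAs had 541 in all and never more than 17 in 1 library. Of the heavy-strand tRNAs, 8 have a gene of the same strand within 3 bases on both sides, so that a longer fragment over them touches more than 1 gene. In all, 12 of the 22 tRNAs never exceeded 10 counts in a library. A gene count does not show whether reads counted for mt-Tp cover the mature tRNA or RNA that runs on into the control region.

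**Figure D2:**
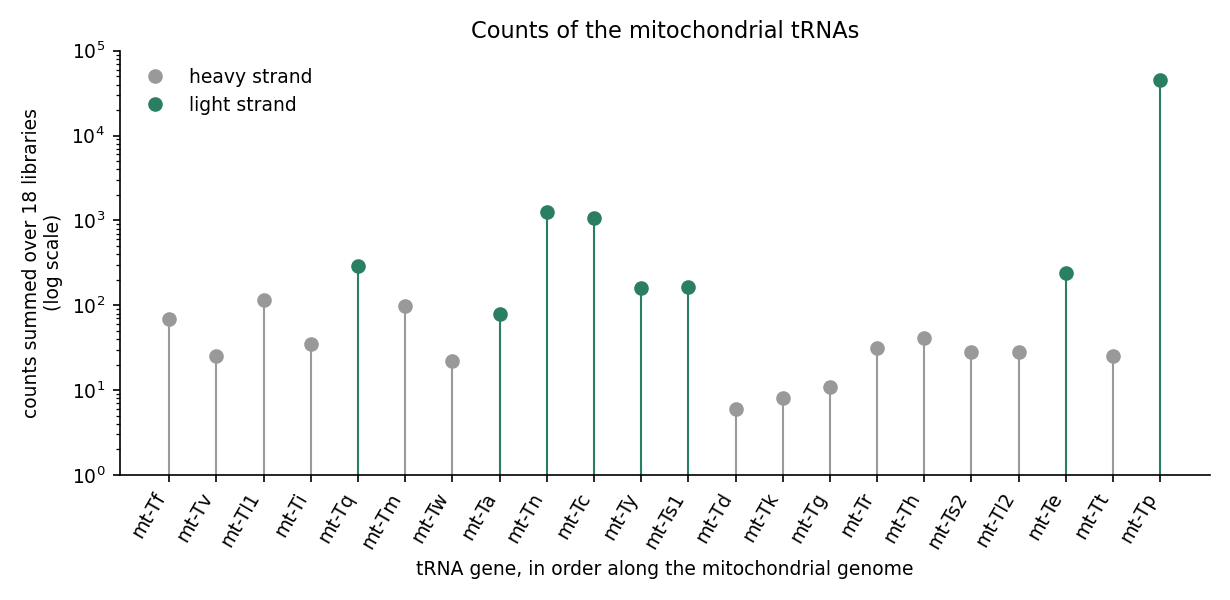
Counts of the 22 mitochondrial tRNAs summed over the 18 libraries (log axis), in order along the genome, coloured by the strand they are transcribed from. mt-Tp stands at 45220 counts, mt-Tn and mt-Tc at 1259 and 1066, and every heavy-strand tRNA at 116 or fewer.

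The first comparison asks whether loss of Site-1 Protease from muscle fibres changed mitochondrial transcripts in the gastrocnemius. No mitochondrial transcript differed between knockout and control at an adjusted p under 0.05 in edgeR's quasi-likelihood test. All 13 mRNAs and both rRNAs were tested, 0 passed in either direction, and 0 had an unadjusted p under 0.05; DESeq2 and limma voom also called 0. In this comparison 3.78% of the 16393 genes tested were called, 1.77% higher and 2.01% lower, and 3057 had an unadjusted p under 0.05 in edgeR. Log2 fold changes of the mRNAs ran from -0.17 to 0.08 with a median of -0.07, against 0.02 over all genes, and 12 of 13 were below 0, a direction that 8 of 13 had with library totals in place of TMM and 6 of 13 relative to the summed mitochondrial mRNA. Leaving out 1 library gave medians from -0.12 (without knockout 9) to -0.05 (without control 5), with 10 to 12 of 13 below 0. The 95% intervals of the 13 lay between -0.42 and 0.31 on the log2 scale.

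mt-Nd1 was at 13806, 13392, 15033, 16815 and 14842 CPM in the 5 control libraries and 13444, 14158, 12265 and 13615 in the 4 knockout libraries. The groups overlapped, and the log2 change came to -0.14 (SE 0.08, adjusted p = 0.356). The value for mt-Co1 was -0.05 (SE 0.08, adjusted p = 0.823), and its sign turned to 0.01 with library totals and to 0.04 relative to the mitochondrial mRNA sum. mt-Nd6 was the mRNA above 0, at 0.08 (SE 0.09, adjusted p = 0.676). Its share of the mitochondrial mRNA counts was 2.27 ± 0.085% (SD, n = 5) in controls and 2.54 ± 0.16% (SD, n = 4) in knockouts, with ranges of 2.19 to 2.36 and 2.31 to 2.67% that overlapped.

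The rRNAs varied more between libraries than the mRNAs did. mt-Rnr2, the large-subunit rRNA, was at 641, 1160, 1094, 965 and 1135 CPM in gastrocnemius controls and 981, 381, 746 and 1044 in knockouts. mt-Rnr1, the small-subunit rRNA, was at 516, 927, 666, 583 and 742 and 677, 226, 416 and 727 CPM. Knockout replicate 6 was the lowest of the 9 libraries for both, and replicate 7 also lay below every control for mt-Rnr1, while the other knockout values fell within the range of the controls. The log2 fold changes were -0.42 (SE 0.36, adjusted p = 0.600) for mt-Rnr1 and -0.34 (SE 0.31, adjusted p = 0.636) for mt-Rnr2. Of the tRNAs, 4 of 22 had enough counts to be tested and none passed in edgeR, in DESeq2 or in limma voom; mt-Tp was at 27.9, 29.9, 19.4, 17.2 and 22.6 CPM in controls and 34.1, 20.9, 19.1 and 32.9 in knockouts, and its log2 difference was 0.20 (SE 0.23, adjusted p = 0.733).

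In the soleus, too, no mitochondrial transcript passed the threshold between knockout and control. All 13 mRNAs and both rRNAs were tested by edgeR's quasi-likelihood test and 0 were called, as in DESeq2 and limma voom; 1 mRNA had an unadjusted p under 0.05. In this comparison 0.0553% of 18087 genes were called, 0.0387% higher and 0.0166% lower, so few genes of any kind passed. Of these genes, 1481 had an unadjusted p under 0.05 in edgeR. Log2 fold changes of the mRNAs ran from 0.03 to 0.22 with a median of 0.15, and the median over all genes was within 0.01 of 0. All 13 were above 0, which held in 13 of 13 with library totals but in 4 of 13 relative to the summed mitochondrial mRNA, where the median was -0.02. Without knockout replicate 39 the median fell to 0.06 with 10 of 13 above 0, and without control replicate 38 it was 0.14 with 11 of 13 above 0. The 95% intervals lay between -0.33 and 0.44.

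The lowest p in the soleus was that of mt-Nd4, at 5965, 5826, 5309, 6235 and 6430 CPM in controls and 6198, 7879, 6864 and 6615 in knockouts. The groups overlapped, and the log2 fold change was 0.22 (SE 0.09, adjusted p = 0.562). mt-Co1 was at 29641, 30377, 28466, 29335 and 30302 CPM in controls and 29538, 40101, 32487 and 29196 in knockouts, and its log2 difference was 0.15 (SE 0.10, adjusted p = 0.742). Knockout replicate 39 had the highest value of the 9 soleus libraries for both genes. mt-Rnr1 was at 529, 298, 351, 358 and 1050 CPM in controls and 310.2, 357, 580.3 and 459.9 in knockouts, and mt-Rnr2 at 704, 314, 430.0, 487 and 924 and 359, 480.5, 1033 and 555. Control replicate 41 was the highest for mt-Rnr1 and knockout replicate 40 for mt-Rnr2. The log2 fold changes were -0.27 (SE 0.41, adjusted p = 0.929) and 0.10 (SE 0.40, adjusted p = 0.971), and that of mt-Tp was 0.16 (SE 0.08, adjusted p = 0.650); 6 of 22 tRNAs were tested and 0 passed with any of the 3 tools.

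Whether the knockout effect differed between the muscles was tested directly. edgeR's quasi-likelihood test of the difference, soleus effect minus gastrocnemius effect, called 0 of 13 mRNAs, 0 of 2 rRNAs and 0 of 6 tested tRNAs, as did DESeq2 and limma voom, and 0.0703% of 18494 genes (0.0595% with a higher and 0.0108% with a lower effect in soleus). The 13 mRNAs had differences from 0.06 to 0.32 with a median of 0.25 against -0.03 over all genes. Of the 13, 5 had an unadjusted p under 0.05 in edgeR, beside 999 of the 18494 genes. Relative to the summed mitochondrial mRNA, 6 of 13 were above 0. Without soleus knockout 39 the median was 0.13, 11 of 13 were above 0 and 0 had an unadjusted p under 0.05; without gastrocnemius control 5 or soleus control 37, 1 had. That of mt-Nd4 was 0.31 (SE 0.12, adjusted p = 0.792), that of mt-Co1 0.19 (SE 0.13, adjusted p = 0.988) and that of mt-Tp -0.04 (SE 0.25, adjusted p = 1). The differences for mt-Rnr1 and mt-Rnr2 were 0.15 (SE 0.56, adjusted p = 1) and 0.43 (SE 0.53, adjusted p = 1). The 13 mRNAs come from shared precursors in the same libraries and are not 13 independent measurements.

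**Figure D3:**
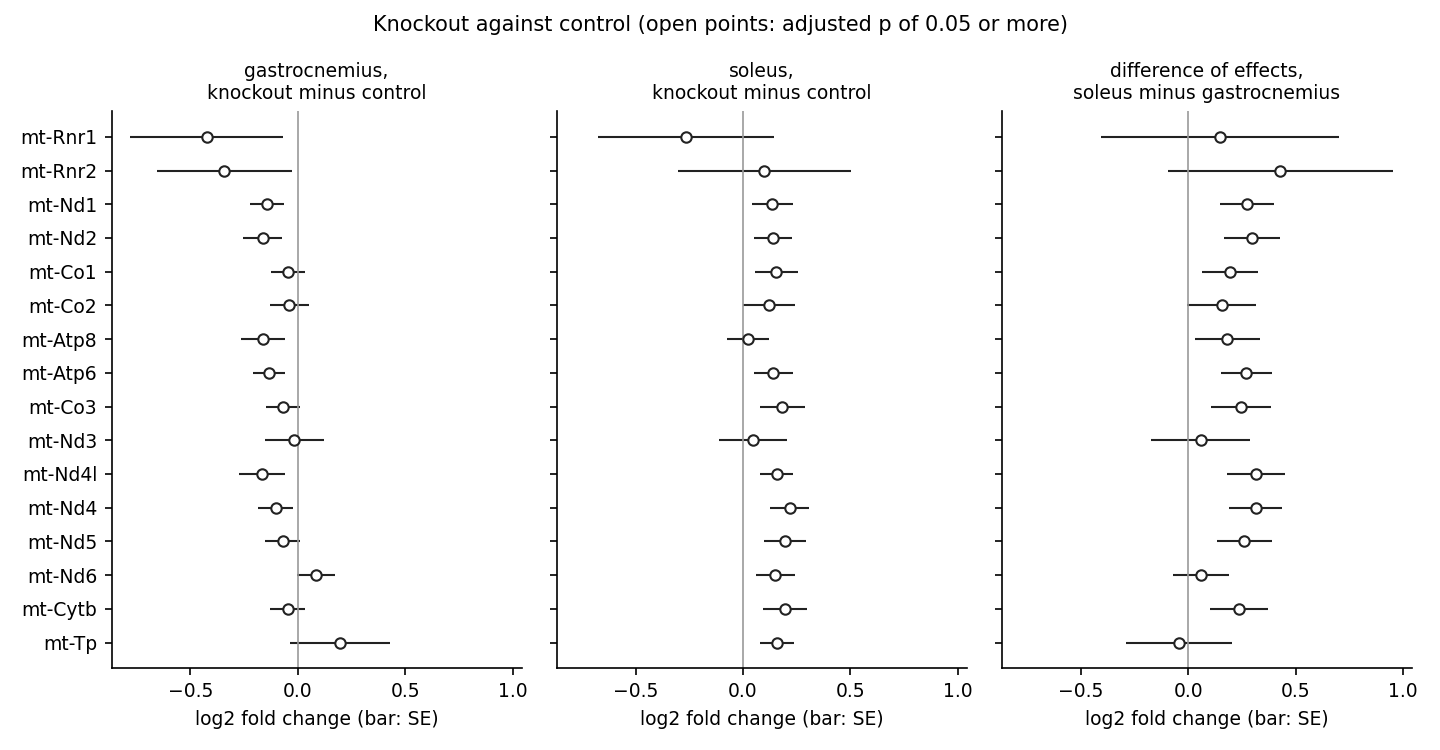
Log2 fold changes (points) with their standard errors (bars) of the mitochondrial mRNAs, rRNAs and mt-Tp, for knockout minus control in each muscle and for the difference of the effects. The mRNAs lie mostly just below 0 in gastrocnemius and above 0 in soleus, and no point has an adjusted p under 0.05.

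The muscles were then compared within each genotype, soleus minus gastrocnemius. In controls, 4 of 13 mRNAs passed edgeR's test, where 49.3% of 18494 genes were called (27.4% higher in soleus and 21.9% lower). mt-Co1 was higher in soleus at 0.32 (SE 0.09, adjusted p = 0.00393). Lower in soleus were mt-Nd1 at -0.26 (SE 0.08, adjusted p = 0.0131), mt-Atp8 at -0.34 (SE 0.10, adjusted p = 0.00768) and mt-Nd4l at -0.22 (SE 0.09, adjusted p = 0.04998) on the log2 scale. In knockouts 3 of 13 mRNAs passed, where 37.8% of genes were called (19.2% higher and 18.5% lower), and all 3 were higher in soleus: mt-Co1 at 0.52 (SE 0.10, adjusted p = 0.000224), mt-Nd5 at 0.31 (SE 0.10, adjusted p = 0.0143) and mt-Nd2 at 0.26 (SE 0.10, adjusted p = 0.0404).

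The calls of these mRNAs depend on the scaling, with the exception of mt-Co1, which was higher in soleus under each scaling tried. TMM factors were 0.869 to 0.968 in gastrocnemius and 1.05 to 1.15 in soleus, and library totals without TMM move the median of all genes from 0.08 to 0.35 in controls and from 0.03 to 0.27 in knockouts. With totals, 6 mRNAs were higher and 0 lower in soleus controls, and 10 higher and 0 lower in knockouts. mt-Nd1 then had 0.00 (0.005) in controls in place of -0.26, mt-Nd4l 0.05 and mt-Atp8 -0.07. Relative to the summed mitochondrial mRNA, 1 mRNA was higher and 6 lower in controls, and 1 higher and 4 lower in knockouts. Against the median of all genes, the median of the mRNAs was lower by 0.24 in controls with TMM and with totals, and higher by 0.07 in knockouts with both. Under TMM and under totals alike, mt-Atp8 was below 0 in controls; in knockouts its sign turned from -0.16 to 0.07 with totals.

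The contrast between mt-Co1 and mt-Nd1 needs no scaling, because both are counted in 1 library. mt-Co1 was at 22519, 21428, 23204, 26189 and 24938 CPM in gastrocnemius controls and 22419, 25413, 21109 and 22687 in gastrocnemius knockouts, all below the 28466 to 30377 of soleus controls and the 29196 to 40101 of soleus knockouts. mt-Nd1 was at 12048, 12664, 12299, 11658 and 13013 CPM in soleus controls and 12073, 16035, 13636 and 12260 in soleus knockouts. There were 1.54 to 1.79 mt-Co1 counts for each mt-Nd1 count in the 9 gastrocnemius libraries and 2.31 to 2.52 in the 9 soleus libraries. The ranges did not overlap. These 2 genes had been called in opposite directions in controls in the same libraries, so their ratio is not separate support for those calls. For mt-Co1 against mt-Cytb the ratios were 1.39 to 1.53 and 1.747 to 1.958, again without overlap. Accordingly mt-Co1 made up 27.1 ± 0.739% (SD, n = 5) of mitochondrial mRNA counts in gastrocnemius controls and 33.0 ± 0.663% (SD, n = 5) in soleus controls, and mt-Nd1 16.9 ± 0.209% and 13.7 ± 0.523%.

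mt-Atp8, the small accessory subunit of ATP synthase, was at 39.0, 50.8, 52.5, 56.1 and 44.0 CPM in gastrocnemius controls and 38.4, 43.1, 40.1, 33.7 and 35.9 in soleus controls, with overlap. In knockouts it was at 41.4, 42.9, 39.5 and 49.3 and 35.5, 47.2, 36.8 and 35.6 CPM, and the log2 fold change was -0.16 (SE 0.11, adjusted p = 0.285). mt-Nd4l was at 152, 162, 186, 199.8 and 144 CPM in gastrocnemius controls and 150.0, 146, 134, 140.1 and 155 in soleus controls. Its adjusted p lay at the threshold, and the call was lost in limma voom (adjusted p = 0.0629), with no filter on low counts (0.0676), with its copy added (0.0748) and without any 1 of 7 libraries: gastrocnemius control 3 (0.0527), 4 (0.128) or 5 (0.176), or soleus control 34 (0.0629), 36 (0.0740), 37 (0.119) or 38 (0.0939).

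mt-Nd5 and mt-Nd2 were called in knockouts and not in controls, but the test of the difference between genotypes called neither (adjusted p = 0.921 and 0.876 in edgeR). The mt-Nd5 call was lost without gastrocnemius knockout 7 (adjusted p = 0.0714) or soleus knockout 39 (0.0563). The mt-Nd2 call was lost without gastrocnemius knockout 2 (0.0581), 7 (0.156) or 9 (0.105), or soleus knockout 39 (0.161) or 40 (0.0687), and under the size factors of DESeq2 in edgeR (0.0569). The 3 mRNAs called lower in controls alone did not pass the test of the difference either, with adjusted p = 0.899 for mt-Nd1, 0.997 for mt-Atp8 and 0.861 for mt-Nd4l in edgeR. In the genotype without a call, mt-Nd5 had 0.05 (SE 0.09, adjusted p = 0.675) and mt-Nd2 -0.04 (SE 0.09, adjusted p = 0.723) in controls, and mt-Nd1 had 0.01 (SE 0.09, adjusted p = 0.926) and mt-Nd4l 0.10 (SE 0.10, adjusted p = 0.471) in knockouts. mt-Cytb and mt-Nd6 were called in neither genotype: -0.07 (SE 0.09) and 0.07 (SE 0.09) in controls, 0.17 (SE 0.10) and 0.13 (SE 0.10) in knockouts. With TMM, the 5 mRNAs not named with values here had log2 differences from -0.35 (mt-Nd3) to -0.08 (mt-Nd4) in controls and from -0.29 (mt-Nd3) to 0.23 (mt-Nd4) in knockouts. Of the 15 nuclear copies found by alignment, 0 were called in either knockout comparison, beside 3.78% of all genes in gastrocnemius and 0.0553% in soleus. Between muscles, edgeR called Gm28437, the mt-Co3 copy, lower in soleus controls at -0.24 (adjusted p = 0.0382). It called Gm13340, a mt-Co1 copy, higher in soleus knockouts at 0.30 (adjusted p = 0.0393). No other copy was called between muscles, beside 49.3% of all genes in controls and 37.8% in knockouts.

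**Figure D4:**
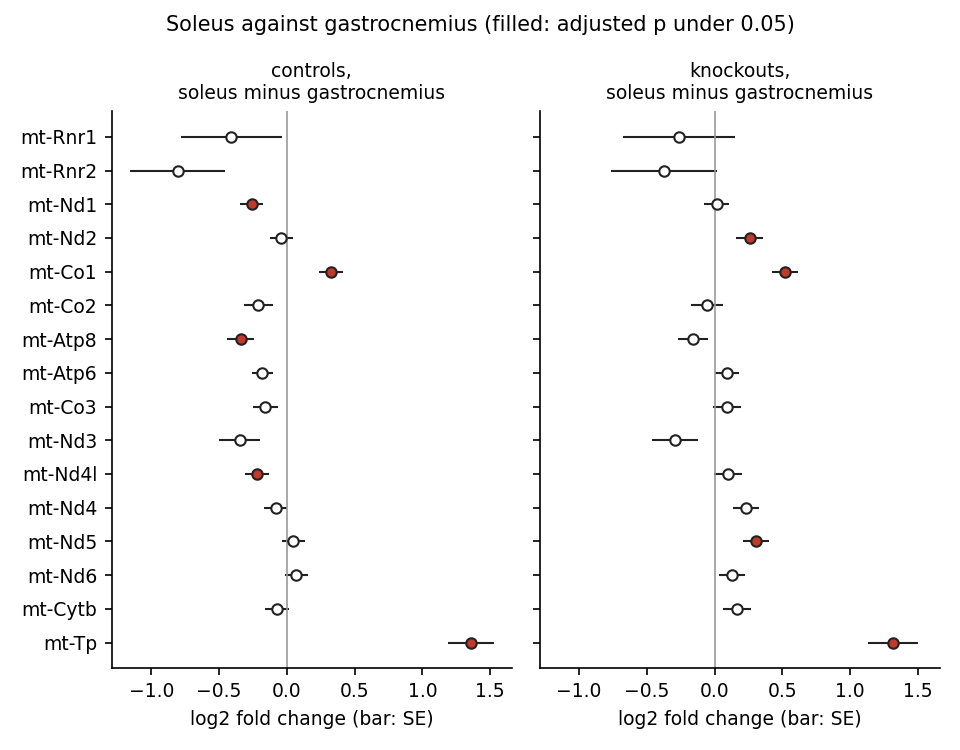
Log2 fold changes, soleus minus gastrocnemius, with standard errors (bars) in controls (left) and knockouts (right); filled points have an adjusted p under 0.05. mt-Tp stands furthest from 0 in both panels and mt-Co1 is the mRNA furthest above 0.

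Of the transcripts tested, mt-Tp differed most between the muscles. It was at 27.9, 29.9, 19.4, 17.2 and 22.6 CPM in gastrocnemius controls and 61.8, 63.7, 58.1, 56.0 and 60.4 in soleus controls. In knockouts it was at 34.1, 20.9, 19.1 and 32.9 and 62, 79.3, 63.4 and 61.8 CPM. Every soleus library lay above every gastrocnemius library. The log2 fold changes were 1.36 (SE 0.17, adjusted p = 3.64e-06) in controls and 1.32 (SE 0.19, adjusted p = 2.78e-05) in knockouts, which are folds of 2.56 and 2.49. Its counts were also set against those of mt-Cytb, the nearest mRNA gene, which lies on the other strand beyond the tRNA mt-Tt. There were 0.912 to 2.19 mt-Tp counts per 1000 counts of mt-Cytb in the same library in gastrocnemius and 3.52 to 4.07 in soleus. Per 1000 counts of mt-Nd6, which is transcribed from the same strand, there were 7.87 to 18 and 23.9 to 31.5. mt-Tp had been called in these same libraries, so the ratios are not separate support for its calls. The other 5 tested tRNAs did not pass in either genotype with edgeR. The nearest was mt-Te, the glutamate tRNA, in controls at -0.84 (SE 0.36, adjusted p = 0.0569), which DESeq2 called (adjusted p = 0.0406), as did edgeR without gastrocnemius control 8 (0.0282). mt-Tn was at 1.18 ± 0.145 CPM (SD, n = 5) in gastrocnemius controls and 1.31 ± 0.187 (SD, n = 5) in soleus controls, and mt-Tc at 1.08 ± 0.183 and 1.03 ± 0.216.

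Further classes of noncoding RNA were set beside mt-Tp. Features that hold residual cytosolic rRNA summed to 27286 to 44157 CPM in gastrocnemius and 12533 to 18237 in soleus, and all 3 tested were lower in soleus in both genotypes. Of 8 short nuclear noncoding RNAs tested, 4 were lower in soleus controls and 2 in soleus knockouts, with 0 higher. Over all genes, 21.9% were called lower in soleus controls and 18.5% in soleus knockouts. In either direction, 49.3% and 37.8% of all genes were called. The 11 listed short RNAs summed to 8506 to 20164 and 9614 to 14443 CPM, which overlapped. Their part in the mt-Tp difference was not tested.

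mt-Rnr2 was at 999 ± 214 CPM (SD, n = 5) in gastrocnemius controls and 572 ± 242 (SD, n = 5) in soleus controls, and mt-Rnr1 at 687 ± 159 and 517 ± 310.4. In edgeR neither passed, with -0.81 (SE 0.35, adjusted p = 0.0717) for mt-Rnr2 and -0.41 (SE 0.37, adjusted p = 0.384) for mt-Rnr1. mt-Rnr2 was called by DESeq2 (-0.85, adjusted p = 0.0314) and limma voom (-0.88, adjusted p = 0.0223). Without soleus control 41, edgeR called both, at -1.04 (adjusted p = 0.0270) for mt-Rnr2 and -0.84 (0.0428) for mt-Rnr1. In knockouts the values were -0.38 (SE 0.39, adjusted p = 0.485) and -0.26 (SE 0.41, adjusted p = 0.660). mt-Rnr1 counts per mt-Rnr2 count ranged from 0.558 to 1.14 over the 18 libraries. The 2 rRNAs lie next to each other, parted only by the valine tRNA, and their level here is what depletion left.

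**Figure D5:**
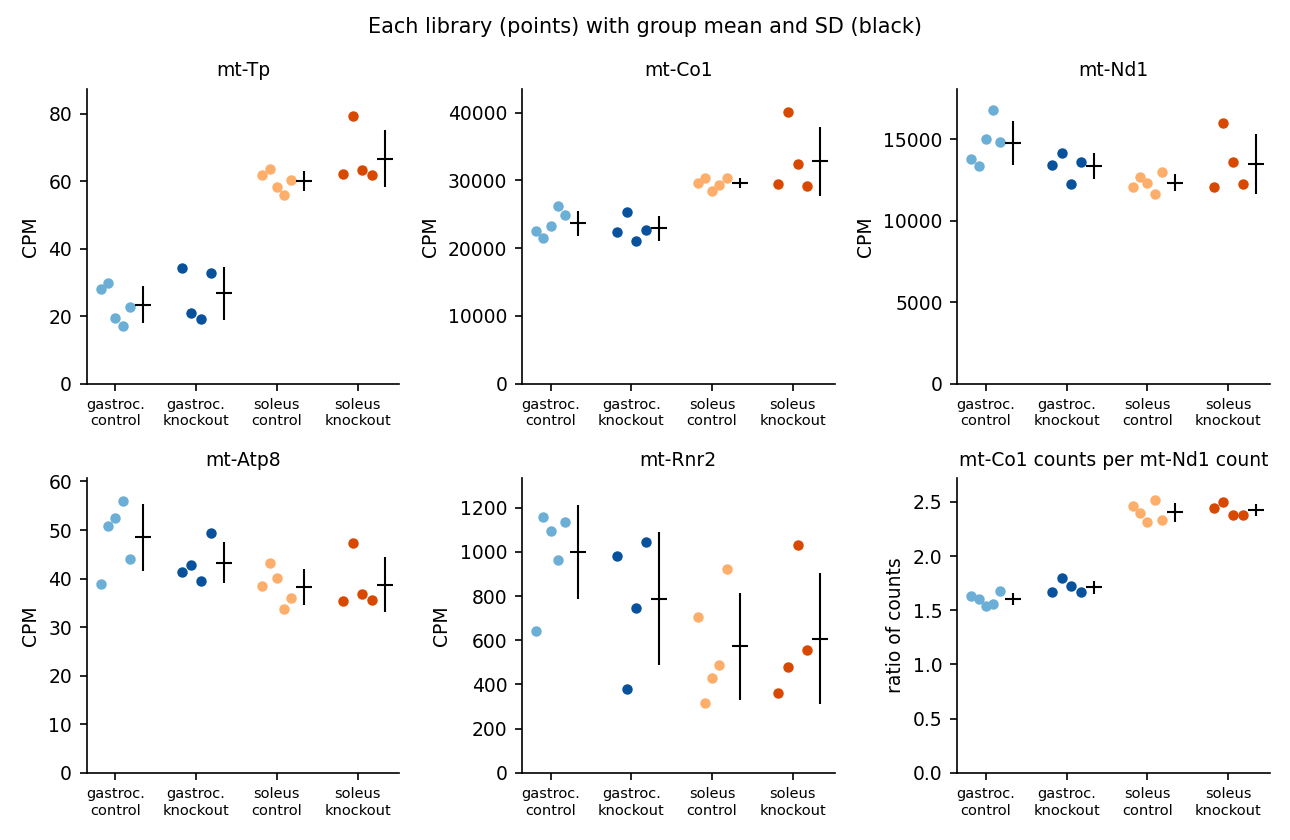
Level of 5 mitochondrial transcripts (CPM, linear axes from 0) and the number of mt-Co1 counts per mt-Nd1 count in each library (points), with the group mean and SD in black, for 5 control and 4 knockout libraries in each muscle. mt-Tp, mt-Co1 and the ratio show soleus libraries above all gastrocnemius libraries, while mt-Rnr2 spreads widely within each group.

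Nuclear genes that act on mitochondrial RNA or partner the mitochondrially encoded subunits were followed in 11 lists with 188 tested genes. In gastrocnemius, knockout minus control, 1 of the 188 was called (0.532%, against 3.78% of all genes): Malsu1, a factor that acts on the mitochondrial large ribosomal subunit, at -0.40 (SE 0.09, adjusted p = 0.0321). DESeq2 called 2 and limma voom 1. Of the 188, 16 had an unadjusted p under 0.05 in edgeR, beside 3057 of all 16393 genes. The median was -0.04 against 0.02 over all genes. In soleus 0 of 188 were called by edgeR, DESeq2 or limma voom, where edgeR called 0.0553% of all genes. An unadjusted p under 0.05 in edgeR was found for 4 of the 188, beside 1481 of all 18087 genes. The difference of the effects was called for 0 of 188 by all 3 tools, where edgeR called 0.0703% of all genes. For it, 5 of the 188 had an unadjusted p under 0.05 in edgeR, beside 999 of all 18494 genes.

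Between the muscles, 61 of the 188 were higher in soleus controls and 26 lower, and 56 were higher and 18 lower in soleus knockouts. These are shares of 46.3% and 39.4% called beside the 49.3% and 37.8% over all genes. By direction, 27.4% of all genes were higher and 21.9% lower in controls, and 19.2% and 18.5% in knockouts. The medians over all genes were 0.08 and 0.03. Nuclear partners of mt-Cytb in complex III were higher for 6 of 9 tested and lower for 0 in both genotypes, with medians of 0.23 and 0.32; Uqcrq had 0.42 and 0.44. Nuclear partners of mt-Co1 in complex IV were higher for 8 of 14 and 7 of 14 and lower for 0, with medians of 0.24 and 0.33, and Cox7a1, the muscle isoform of its subunit, had 0.56 and 0.61. Complex I partners were higher for 12 and lower for 5 of 36 in controls and higher for 14 and lower for 0 in knockouts; Ndufb3 had 0.77 and 0.73, and Ndufb4 -0.48 in controls. ATP synthase partners were higher for 6 and lower for 1 of 15 in controls and higher for 7 and lower for 0 in knockouts, and Atp5h had 0.57 and 0.56.

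Of 10 genes of mitochondrial transcription, 5 were called in controls and 3 in knockouts, shares close to those of all genes. Polrmt, the mitochondrial RNA polymerase, was lower in soleus by log2 values of -0.36 in controls and -0.33 in knockouts, and Tfb2m, which helps it open promoters, by -0.41 and -0.27. Mterf3, a factor that binds mitochondrial DNA, was higher at 0.66 and 0.64. In this list 3 were higher and 2 lower in controls, and 1 higher and 2 lower in knockouts.

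Over all genes, 27.4% were called higher and 21.9% lower in soleus controls, and 19.2% and 18.5% in soleus knockouts. In the list on RNA stability and decay, 7 of 15 were higher and 3 lower in controls, and 7 higher and 1 lower in knockouts. Lrpprc, which stabilises mitochondrial mRNAs, had 0.60 and 0.65. Supv3l1, the helicase of the RNA degradosome, had 0.55 and 0.59. Rexo2, an exonuclease for very short RNAs, was lower at -0.46 and -0.66. In the list on RNA cleavage and tRNA maturation, 5 of 18 were higher and 3 lower in controls and 3 higher and 2 lower in knockouts. The shares called in this list were below the 49.3% and 37.8% of all genes. Elac2, the RNase Z that cuts tRNA 3′ ends, was lower at -0.23 and -0.31, and Trmu, which modifies tRNAs, was higher at 0.69 and 0.72.

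Of 17 genes of mitochondrial DNA maintenance, 1 was higher and 3 were lower in each genotype, beside the 49.3% and 37.8% of all genes called. Mgme1, a nuclease that trims mitochondrial DNA ends, was lower at -0.97 and -0.89, and Top1mt, the mitochondrial topoisomerase, at -0.66 and -0.64. Of the synthetase list, 5 of 22 were higher and 5 lower in controls and 3 higher and 6 lower in knockouts. Lars2, the leucyl-tRNA synthetase, was at 942 ± 289 CPM (SD, n = 5) in gastrocnemius controls and 282 ± 101 (SD, n = 5) in soleus controls, a log2 difference of -1.74; it moved in the same direction as the residual cytosolic rRNA above, whose part in it was not tested. Of the list on rRNA modification and ribosome assembly, 6 of 20 were higher and 3 lower in controls and 5 higher and 4 lower in knockouts, and of the translation factors 2 of 12 higher and 1 lower in controls and 2 higher and 0 lower in knockouts.

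Markers of fibre types and of other cell types were compared between the muscles. Of all genes, edgeR called 49.3% in controls and 37.8% in knockouts. Of the fibre markers, 10 of 10 on the slow list were higher in soleus in both genotypes and 9 of 10 on the fast list lower. Summed markers of the slow list were at 3220 to 4966 CPM in the gastrocnemius and 26038 to 41397 in the soleus. That list includes Myh2, the myosin of fast oxidative type IIA fibres. Myh2 alone was at 2337 to 3473 CPM in gastrocnemius and 12589 to 17244 in soleus, so these sums are not of slow-fibre genes alone. Endothelial markers were higher in soleus for 5 of 5 in controls and 4 of 5 in knockouts, with sums of 227 to 280.7 CPM in gastrocnemius and 293 to 323 in soleus. Fibroblast markers were lower for 4 of 5 in both genotypes, with sums of 1836 to 4065 and 973 to 2296 CPM, and macrophage markers for 2 of 5, with sums of 63.4 to 125 and 41.6 to 75.0 CPM. Of the adipocyte markers 1 of 5 was lower and of the red blood cell markers 1 of 5 higher in both genotypes. The part of these cell types in the differences of mitochondrial transcripts was not tested.

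In the gastrocnemius knockout comparison, 1 of 10 markers on the slow list was called lower, Myl2 at -0.95 (SE 0.16, adjusted p = 0.0113 in edgeR). Of all 16393 genes there, edgeR called 3.78%, DESeq2 called 1235, and 3057 had an unadjusted p under 0.05 in edgeR. There 6 slow markers had an unadjusted p under 0.05, the median was -0.62 and DESeq2 called 4; of 10 fast markers 0 were called and 5 had an unadjusted p under 0.05. In the soleus knockout comparison edgeR called 0 slow markers, with 8 at an unadjusted p under 0.05, a median of -0.34 and 2 called by DESeq2. It called 0 fast markers, with 3 at an unadjusted p under 0.05. Of all 18087 genes there, edgeR called 0.0553%, DESeq2 called 166, and 1481 had an unadjusted p under 0.05 in edgeR. Of the other cell types, 1 of 5 adipocyte markers was called higher in gastrocnemius knockouts and 0 in soleus. The called gene was Ucp1, at 0 to 0.268 CPM in gastrocnemius controls and 0.937 to 1.29 in gastrocnemius knockouts, a level near the floor. Of the 5, only 1 had a log2 fold change above 0 there, and their median was -0.44. Endothelial, macrophage, fibroblast and red blood cell markers had 0 called by edgeR in both muscles. In gastrocnemius 4 of 5 macrophage markers had an unadjusted p under 0.05 and DESeq2 called 2.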

How the data were processed

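Total RNA of 18 muscle libraries was sequenced after ribosomal depletion. Per the labels' protocols and the submitters' processing notes, the authors used bcl2fastq, STAR 2.5.1a and featureCounts 1.4.6-p5 of Subread on GRCm38 to obtain a count per gene; for the annotation release, the strand setting and reads matching several places, the sources used here give nothing. Deposited CPM values are the counts rescaled to each library's total, and the deposited RPKM values are those per kilobase; only counts were used.

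Here, edgeR 4.0.16 (R 4.3.3) was fitted to all features with TMM scaling, filterByExpr (minimum count 10, minimum total 15), robust quasi-likelihood tests and Benjamini-Hochberg adjustment at 0.05. Knockout comparisons used the 9 libraries of a muscle, and muscle comparisons and the difference of effects all 18. CPM in the text were recomputed on TMM-scaled library sizes. Alternatives were DESeq2 1.42.0, limma voom 3.58.1, other size factors, no low-count filter, scaling from nuclear genes or to mitochondrial mRNA, a fit of all 18 libraries and leaving out each library; adding the copies' counts and library totals without TMM were chosen after seeing the data. Intervals of 95% use the t distribution on the residual degrees of freedom. The fits were tested on simulated data with 200 genes changed, drawn at random from all genes tested. Changes of 1.5-fold were recovered for 42% of them in the gastrocnemius knockout comparison, 37.5% in the soleus one and 13% in the difference of effects. At 2-fold these were 75.5%, 63.5% and 48%. False calls made up at most 7.97% of calls.

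Nuclear copies were annotated GENCODE release 21 transcripts with 200 aligned bases and 90% identity in blastn 2.17.0, so unannotated copies were not analysed here. No 2 libraries of a group agreed within counting noise (chi-square per gene 18.1 to 134 over 32 pairs).

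All mRNAs and rRNAs are reported. Of the tRNAs, those called and the 3 highest and 3 lowest per kilobase are named. From the nuclear lists, named genes are called members among the 3 largest log2 changes in each direction per comparison. The transcripts and lists were chosen with earlier results of these data known. Of 266 listed symbols, 260 were found.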

Additional observations from a re-analysis of the deposited data

Results flagged for a closer look

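Of 172 sets of 4 or 5 libraries examined, 12 had 1 library standing apart from the others of its group by Dixon's criterion; chance gives about 1 in 20. The widest gap was in mt-Tq, the glutamine tRNA, at 2.79 CPM in soleus control 37 against 0.0486 to 0.141 in the other soleus controls. That library held 239 of the 289 mt-Tq counts of all 18 libraries, and the same library had the lowest share of tRNA counts from mt-Tp among soleus controls, at 90.1% against 93.7 to 94.6%. mt-Tc, the cysteine tRNA, was at 1.4 CPM in soleus control 36 against 0.898 to 1.04.

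Soleus knockout 39 stood above the other soleus knockouts in 3 transcripts: mt-Tp at 79.3 CPM against 61.8 to 63.4, mt-Atp8 at 47.2 against 35.5 to 36.8, and mt-Nd4l at 185 against 150.4 to 155. Leaving it out ended the calls of mt-Nd2 and mt-Nd5 between muscles in knockouts and left those of mt-Tp and mt-Co1.

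Soleus control 38 had mt-Co2 at 174 CPM against 209.6 to 224, nuclear copies at 2.39 counts per 100 mitochondrial mRNA counts against 2.79 to 2.95, and mt-Nd6 at 2.62% of mitochondrial mRNA counts against 2.21 to 2.29%. In gastrocnemius, mt-Atp6 was at 347 CPM in control 5 against 288 to 299, mt-Nd3 was at 57.5 in knockout 9 against 35.9 to 38.2, and the 7 chromosome 1 copies, which include copies of mt-Co1 and mt-Nd4, were at 172 counts per 100 counts of the 6 mRNAs of low level in control 8 against 181 to 184.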

How the results depend on the processing

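No paired analysis was run, because the groups share no replicate number in the labels. The soleus titles carry the gastrocnemius numbers plus 33, with the same genotype at all 9, but no label says that both muscles came from the same mice; the 18 libraries were treated as independent, and a shared mouse was not tested. In both knockout comparisons and in their difference, no mitochondrial transcript was called under any alternative run, leaving out each library included. Over all genes, the gastrocnemius knockout comparison called 619, against 1235 with DESeq2 and 287 scaled to mitochondrial mRNA. The soleus one called 10, against 166 with DESeq2, 48 with no low-count filter and 28 when all 18 libraries were fitted together. For the difference the count was 13, against 52 with DESeq2, 7 with limma voom and 3 scaled to mitochondrial mRNA. Leaving out 1 library gave 206 (without control 5) to 1080 (without knockout 2), 3 (without control 37) to 66 (without knockout 35) and 2 (without soleus control 37) to 23 (without gastrocnemius knockout 2) calls; the causes were not tested.

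In controls, mRNAs lower in soleus numbered 3, against 5 with DESeq2 size factors in edgeR and 5 in DESeq2 (adding mt-Atp6 and mt-Nd3), 6 scaled to mitochondrial mRNA and 0 with totals without TMM, where 6 were higher in place of 1; leaving out 1 library gave 2 to 4 lower. In tRNAs 1 was called, against 2 with DESeq2 size factors and in DESeq2 (adding mt-Te) and 2 with no filter (adding mt-Tq, whose counts lie mostly in soleus control 37), and 1 to 2 leaving out a library. The rRNAs called were 0, against 1 in DESeq2 and in limma voom, and 0 to 2 leaving out a library. In knockouts, 3 mRNAs were higher, against 1 scaled to mitochondrial mRNA (with 4 lower in place of 0) and 10 with totals; leaving out 1 library gave 1 to 4.

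Scaling to mitochondrial mRNA turned the sign of mt-Co1 to 0.035 (gastrocnemius knockout effect), -0.017 (soleus) and -0.051 (their difference), of mt-Rnr2 and mt-Tp to -0.057 and -0.011 in soleus, of mt-Rnr1 to -0.066 in the difference, and between muscles in knockouts of mt-Nd1 (-0.272), mt-Nd2 (-0.021), mt-Nd4l (-0.177), mt-Nd6 (-0.150) and mt-Cytb (-0.122). Totals without TMM turned mt-Co1 to 0.012 in the gastrocnemius knockout effect, mt-Nd1 (0.005), mt-Nd2 (0.225), mt-Nd4l (0.048) and mt-Cytb (0.194) between muscles in controls, and mt-Atp8 (0.071) in knockouts. Both are the effect of the scaling itself, which shifts every gene of a library by the same amount.

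Among the genes whose log2 values are named above, leaving out 1 library turned the sign of 7 small values; other mRNAs near 0 turned too. For the difference of effects, mt-Tp ranged from -0.145 to 0.094 (above 0 without gastrocnemius knockout 2 or 9 or control 4 or 5) and mt-Rnr1 from -0.099 to 0.578 (below 0 without gastrocnemius knockout 6 or soleus knockout 40). For the soleus knockout effect, mt-Rnr2 ranged from -0.290 to 0.338 (below 0 without control 36 or knockout 40) and mt-Rnr1 from -0.453 to 0.163 (above 0 without control 41). Between muscles in controls, mt-Nd2 ranged from -0.071 to 0.011 (above 0 without gastrocnemius control 5) and mt-Nd5 from -0.000 to 0.084 (below 0 without soleus control 41). In knockouts, mt-Nd1 ranged from -0.080 to 0.063 (below 0 without gastrocnemius knockout 7 or soleus knockout 39). mt-Co1 and mt-Tp were called between muscles in both genotypes under every alternative run.

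Depth limits the tRNAs: 12 of 22 never exceeded 10 counts in a library, so differences in them were not detectable. With 4 or 5 libraries a group, the knockout intervals of the mRNAs ran from -0.42 to 0.44 on the log2 scale and those of the rRNAs from -1.27 to 1.05. Whether the libraries are separate mice is not stated.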
